A study of Mus musculus with 2 samples.

Results

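The genes described are 10 regulators of messenger RNA decay, chosen by name for their role from a table of 34714 genes, with earlier results of these data known, and all 10 were measured. They comprise the tristetraprolin (TTP) family Zfp36, Zfp36l1 and Zfp36l2, the AU-rich element binding proteins Elavl1 and Khsrp, the stem-loop binding protein Rc3h1, the antiproliferative factors Btg1 and Btg2, and the deadenylase subunits Cnot1 and Cnot7. They were measured by RNA sequencing in bone marrow-derived macrophages of C57BL/6 mice, grown from marrow cells in 20 ng/mL macrophage colony-stimulating factor. One library (1 per group) came from cells given the anti-CD40 antibody FGK45 for 24 h, and the other from cells given IgG for the same time. Both groups thus share the strain, the growth factor and the time, and no genotype or allele differs between them. CD40 is a receptor that T cells engage through CD40 ligand, and the antibody is an activating one that takes the place of the ligand. No source used here gives the number of mice behind each library. The title of the series sets the comparison within chronic rejection of heart grafts.

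Many cytokine and early response mRNAs carry AU-rich elements in the 3′ untranslated region, repeats of the pentamer AUUUA that mark them for rapid decay. TTP and its relatives bind these elements through zinc fingers and recruit the CCR4-NOT complex, which shortens the poly(A) tail before the cap is removed and the body is degraded. HuR, encoded by Elavl1, binds similar elements and is best known for stabilising the mRNA. In macrophages TTP limits tumour necrosis factor, its own mRNA carries AU-rich elements, and the p38-MK2 kinase pathway phosphorylates and inactivates it.

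The sequences below carry features described in the results, and whether these features bear on the ratios was not tested. The first set shows the richest 27-base stretch of AU-rich heptamers (TATTTAT in DNA letters, in capitals, overlapping copies included) in the 3′ untranslated regions of Zfp36, Btg2, Elavl1 and the TTP targets Tnf, Il1b, Cxcl1 and Cxcl2, from GENCODE release M21 transcripts on GRCm38. Zfp36 lies at chr7:28376959-28376985 and Btg2 at chr1:134077240-134077266, both on the minus strand.
Zfp36: ttTATTTATgacgacttTATTTATtgt
Btg2: TATTTATacatgttttttttttttttt
Elavl1: aaaatTATTTATTTATTTATTTATttt
Tnf: atTATTTATTATTTATTTATTATTTAT
Il1b: acttaccTATTTATTTATgTATTTATt
Cxcl1: tccTATTTATTTATgTATTTATTTATt
Cxcl2: TATTTATTTATctatgTATTTATTTAT
Elavl1 lies at chr8:4285784-4285810, Tnf at chr17:35199682-35199708 and Il1b at chr2:129364806-129364832 on the minus strand. Cxcl1 lies at chr5:90892607-90892633 and Cxcl2 at chr5:90905327-90905353 on the plus strand.

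The second set shows the 250 bases before the transcription start of Zfp36, Btg2 and Btg1, from RefSeq on GRCm38.p6. These are the 3 of the 10 genes with the highest log2 ratio between the libraries, on the scale given below. By the plain ratio of values Cnot7 stood above Btg1, at 1.45 against 1.38, and no promoter window was found for Cnot7. Capitals mark the EGR motif GCGGGGGCG and the CArG box in Zfp36, the cyclic AMP response element TGACGTCA in Btg2, and the partial element ACGTCA and the TATA motif TATAAA in Btg1. The windows are chr7:28379229-28379478 on the minus strand, chr1:134079156-134079405 on the minus strand and chr10:96616751-96617000 on the plus strand, in that order.
Zfp36: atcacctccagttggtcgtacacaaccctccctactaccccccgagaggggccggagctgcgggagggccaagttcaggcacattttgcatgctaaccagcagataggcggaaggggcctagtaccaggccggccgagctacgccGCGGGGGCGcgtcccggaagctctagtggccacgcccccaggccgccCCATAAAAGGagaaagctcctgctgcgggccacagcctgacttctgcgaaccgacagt
Btg2: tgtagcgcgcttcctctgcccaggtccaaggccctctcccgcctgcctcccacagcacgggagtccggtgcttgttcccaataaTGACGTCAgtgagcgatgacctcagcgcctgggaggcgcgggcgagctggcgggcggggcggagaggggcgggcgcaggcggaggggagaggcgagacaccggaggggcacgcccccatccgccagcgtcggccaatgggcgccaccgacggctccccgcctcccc
Btg1: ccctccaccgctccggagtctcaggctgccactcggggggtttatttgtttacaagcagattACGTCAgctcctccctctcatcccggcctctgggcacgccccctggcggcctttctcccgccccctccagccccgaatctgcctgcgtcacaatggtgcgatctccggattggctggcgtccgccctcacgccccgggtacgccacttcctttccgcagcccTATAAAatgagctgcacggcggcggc

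With a single library for each treatment (n = 1), replicate error is unknown, and no test, p-value or standard error is given. Values are FPKM, fragments scaled by transcript length and library size, as deposited. Steps in the low values, sought only within a preset range, gave about 6.16 gigabases of aligned sequence for anti-CD40 and 5.58 for IgG. Folds are ratios of FPKM values, with 95% exact conditional binomial intervals on approximate fragment numbers, which cover counting error only. Log2 ratios are on the FPKM + 1 scale, which understates the difference of low genes. Counts of genes past 1.5-fold or 2-fold are on that scale too, so a low gene past 1.5-fold by FPKM may go uncounted. Over the 9591 genes that reached 1 FPKM in at least 1 library, the median log2 ratio was 0.12 toward anti-CD40, and 67.8% of genes had the higher value with anti-CD40. The 8 macrophage markers examined were all above 1 FPKM, 6 of them had log2 ratios above the median of all genes, and their median was 0.17. The ratios ran between -0.16 for Fcgr1 and 0.45 for Cd14, the lipopolysaccharide co-receptor, at 333 FPKM after anti-CD40 and 244 after IgG. Csf1r, the receptor for the growth factor, had 333 FPKM after anti-CD40 and 333 after IgG. The part of these markers in the ratios of the 10 genes was not tested. Of 31 markers of T cells, B cells, neutrophils, dendritic cells and fibroblasts, 30 were in the table and 2 reached 1 FPKM. These were Cd4, at 3.94 FPKM after anti-CD40 and 3.04 after IgG, and S100a8, at 1.82 FPKM after anti-CD40 and 1.11 after IgG, while Cd3e, Cd3d, Cd3g and Ly6g were listed at 0 in both.

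All 10 decay regulators passed 1 FPKM in both libraries. Of these, 9 had the higher value with anti-CD40, as did 67.8% of all genes (6499 of 9591). At 1.5-fold on the log2 scale 2 genes were higher with anti-CD40, Zfp36 and Btg2, against a background of 2.68% of all genes (257 of 9591). None of the 10 was 1.5-fold lower, where the background was 2.15% (206 genes). Centred on the median of all genes, 118 genes were 1.5-fold higher and 406 lower. Of the 10, none was 2-fold apart either way, where the backgrounds were 0.25% higher and 0.313% lower. The median log2 ratio of the 10 was 0.29 beside 0.12 for all genes, and 7 of the 10 exceeded the median of all genes, as 50% of genes do. In order of log2 ratio, Zfp36, Btg2, Btg1, Cnot7 and Cnot1 lay between 0.33 and 0.74. Zfp36l2, Zfp36l1, Elavl1, Rc3h1 and Khsrp lay between -0.03 and 0.24.

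**Figure D1:**
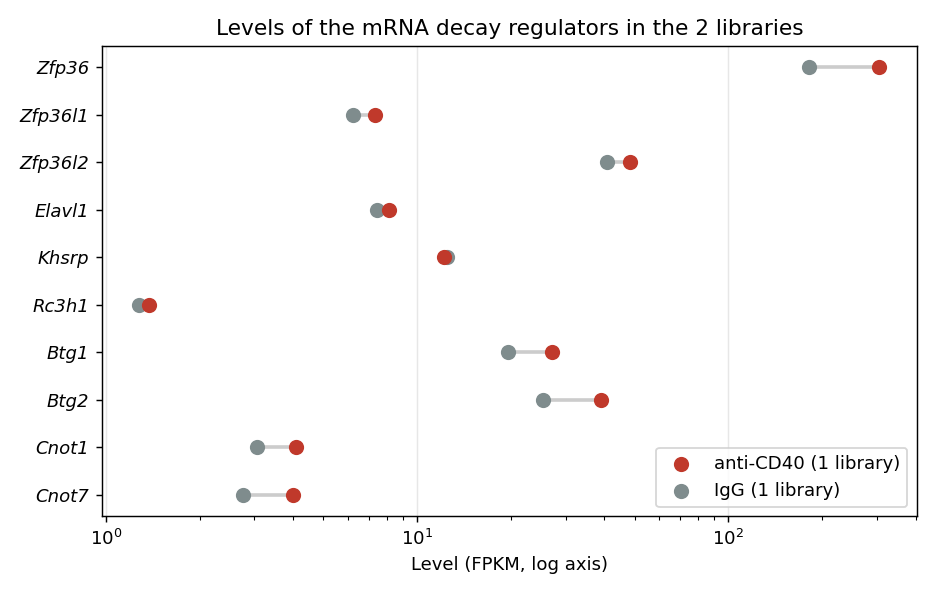
Level of each of the 10 decay regulators in FPKM on a log axis, with 1 point for the anti-CD40 library and 1 for the IgG library. Zfp36 stands far above the others at 306 FPKM after anti-CD40 and 182 after IgG, and Rc3h1 is the lowest at 1.37 after anti-CD40 and 1.28 after IgG.

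Zfp36, the gene of TTP (chromosome 7, 28376784 to 28379228, GRCm38), had 306 FPKM after anti-CD40 and 182 after IgG. The anti-CD40 value was 1.68 times the IgG value (interval 1.63 to 1.72), a log2 ratio of 0.74. This was the largest ratio of the 10 genes, and 93 of the 9591 genes (0.97%) had a higher one. Zfp36 is also abundant, with 298 genes at a higher mean level. Among the 709 genes that reached 100 FPKM, 3.1% were at least 1.5-fold higher after anti-CD40 and their median log2 ratio was -0.05. Once the median shift of all genes was subtracted, the ratio of Zfp36 was 0.62.

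The other TTP relatives stood closer to the median of all genes. Zfp36l2, which is known in mice for its role in blood stem cells (chromosome 17, 84183924 to 84187947), had 48.4 FPKM after anti-CD40 and 40.7 after IgG, 1.19-fold higher (interval 1.13 to 1.25). Zfp36l1 (chromosome 12, 80107760 to 80113013) had 7.31 FPKM after anti-CD40 and 6.22 after IgG, 1.17-fold higher (interval 1.02 to 1.36). Their log2 ratios of 0.24 and 0.20 were exceeded by 28.9% and 35.7% of genes. Zfp36l3, the rodent relative known from placenta, was listed at 0 in both libraries. Summed over Zfp36, Zfp36l1 and Zfp36l2, the family had 362 FPKM after anti-CD40 and 229 after IgG, or 1.58-fold. Zfp36 made up 84.6% of that sum after anti-CD40 and 79.5% after IgG, and Zfp36l2 made up 13.4% after anti-CD40 and 17.8% after IgG. The level of Zfp36 per length was 6.32 times that of Zfp36l2 after anti-CD40 and 4.47 times after IgG.

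The antiproliferative factors bind the CNOT7 deadenylase and, through poly(A)-binding protein, promote deadenylation. Btg2 (chromosome 1, 134074865 to 134079155), which is also a p53 target, had 39.0 FPKM after anti-CD40 and 25.3 after IgG. The anti-CD40 value was 1.54-fold higher (interval 1.44 to 1.65), and 2.4% of genes exceeded the log2 ratio of 0.60. Btg2 lies just past the 1.5-fold mark of 0.58, and with the median shift subtracted its ratio was 0.48, under the mark. Btg1 (chromosome 10, 96617001 to 96622813), which together with Btg2 keeps mouse T cells quiescent, had 27.1 FPKM after anti-CD40 and 19.6 after IgG, 1.38-fold higher (interval 1.30 to 1.47). Its log2 ratio of 0.45 was exceeded by 7.12% of genes and stays under 1.5-fold. The relatives Tob1 and Tob2 had 1.83 and 4.25 FPKM with anti-CD40, against 1.40 and 3.62 after IgG, with log2 ratios of 0.24 and 0.18. Btg3 was under 1 FPKM in both libraries and Btg4 was listed at 0. Over Btg1, Btg2, Btg3, Tob1 and Tob2, Btg2 made up 53.5% of the summed FPKM after anti-CD40 and 50.1% after IgG.

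**Figure D2:**
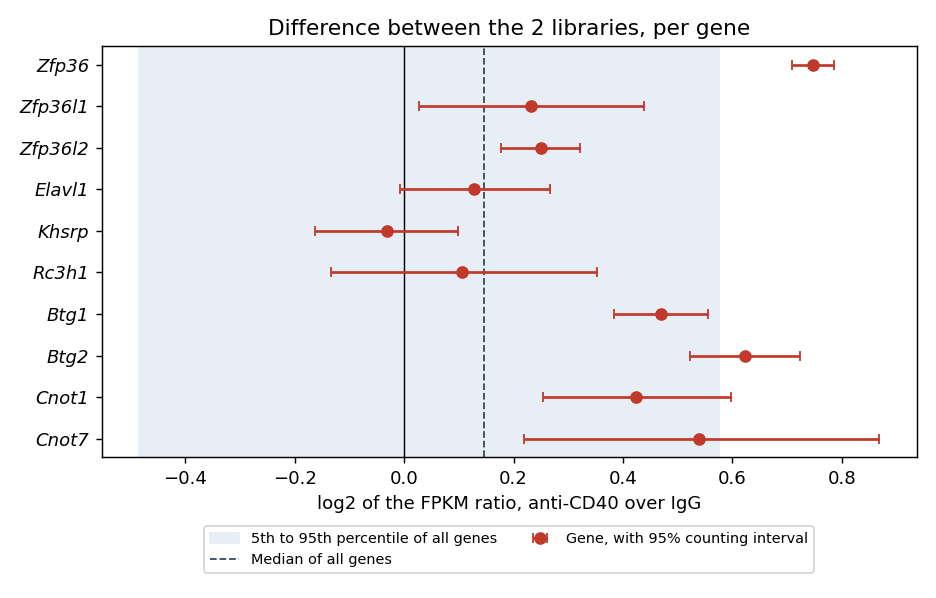
Log2 of the FPKM ratio of anti-CD40 over IgG for each decay regulator, with its 95% counting interval; the band spans the 5th to 95th percentile of genes with both values at 1 FPKM or above and the dashed line is their median. Zfp36 and Btg2 lie beyond the upper edge of the band, and the interval of Btg2 reaches back across it.

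Cnot1 and Cnot7 are parts of the CCR4-NOT complex, Cnot1 as its scaffold and Cnot7 as a catalytic deadenylase. Cnot7 (chromosome 8, 40492538 to 40515847) had 4.0 FPKM after anti-CD40 and 2.75 after IgG, 1.45-fold higher (interval 1.16 to 1.83). Cnot1 (chromosome 8, 95718931 to 95808113) had 4.09 FPKM after anti-CD40 and 3.05 after IgG, 1.34-fold higher (interval 1.19 to 1.51). Cnot7 rested on the fewest fragments of the 10 genes, some 209 in the anti-CD40 library and 130 in the IgG library. The log2 ratios of 0.41 and 0.33 were exceeded by 9.27% and 17.2% of genes.

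The 10 other subunits of the complex had a median log2 ratio of 0.07 beside 0.12 for all genes, 3 exceeded that value, and 0 were 1.5-fold apart. Cnot8, the paralog of Cnot7 and the other CAF1 deadenylase, had 28.7 FPKM after anti-CD40 and 22.3 after IgG, a log2 ratio of 0.35 that was the highest of the list. The level of Cnot8 was 7.16 times that of Cnot7 after anti-CD40 and 8.09 times after IgG. Cnot2 and Cnot9 followed with log2 ratios of 0.19 and 0.17. Cnot10 was lower with anti-CD40, at 11.6 FPKM, and had 14.6 FPKM after IgG, a log2 ratio of -0.31. Cnot3 had 23.8 FPKM after anti-CD40 and 26.8 after IgG, a log2 ratio of -0.16.

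The general binders showed the smallest differences. Elavl1 (chromosome 8, 4284781 to 4325140) had 8.12 FPKM after anti-CD40 and 7.43 after IgG, 1.09-fold (interval 0.994 to 1.20). Khsrp, which encodes KSRP, a decay-promoting binder of AU-rich elements (chromosome 17, 57021049 to 57031507), had 12.2 FPKM after anti-CD40 and 12.4 after IgG, 0.978-fold (interval 0.893 to 1.07). Rc3h1, the gene of Roquin-1, which binds stem-loops in mRNAs of T cell regulators and cytokines (chromosome 1, 160906411 to 160974976), had 1.37 FPKM after anti-CD40 and 1.28 after IgG, 1.08-fold (interval 0.912 to 1.28). All 3 intervals include 1, and their directions depend on the scaling. Elavl1 and Rc3h1 turn slightly lower once the median shift is subtracted (log2 -0.01 and -0.06), Rc3h1 also after upper-quartile scaling (-0.01), and Khsrp turns slightly higher when both libraries are scaled to the same sum (0.02). The level of Zfp36 was 37.7 times that of Elavl1 after anti-CD40 and 24.5 times after IgG.

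Genes outside the 10 give the setting in the pathway, and their lists were drawn with earlier results of these data known. Among 12 other measured binders of 3′ untranslated regions at 1 FPKM or more the median log2 ratio was 0.31, 9 lay above the median of all genes, and 1 was 1.5-fold higher. That gene was Ybx1, a cold shock domain protein that binds mRNA, at 108 FPKM after anti-CD40 and 70.4 after IgG. Pum2, a Pumilio repressor, had 9.54 FPKM after anti-CD40 and 6.37 after IgG, and the poly(C)-binding Pcbp1 62.7 after anti-CD40 and 45.9 after IgG. The lowest log2 ratio was that of Celf1, at -0.09. Of the 4 other Roquin and Regnase genes at 1 FPKM or more, with a median of 0.17, Zc3h12a had the highest log2 ratio. Zc3h12a encodes Regnase-1, a nuclease for cytokine mRNAs, and had 6.47 FPKM after anti-CD40 and 4.61 after IgG, 1.40-fold (interval 1.19 to 1.66). Zc3h12d, N4bp1 and Rc3h2 followed with log2 ratios of 0.22, 0.12 and 0.08.

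The mRNA levels of 8 genes of the PAN2-PAN3 deadenylase and of poly(A)-binding proteins differed in both directions. They had a median log2 ratio of 0.10, with 0 at least 1.5-fold higher and 1 lower on the FPKM + 1 scale. Pan3, the subunit that recruits the PAN2 nuclease, had 5.13 FPKM after anti-CD40 and 3.34 after IgG. By FPKM this was 1.54-fold (interval 1.34 to 1.77), while the log2 ratio of Pan3, 0.50, stayed under the 1.5-fold mark. Paip2 and Pan2 followed with log2 ratios of 0.29 and 0.28. Pabpc4, an inducible cytoplasmic poly(A)-binding protein, was lower with anti-CD40, at 21.9 FPKM, against 37.6 FPKM after IgG, 0.581-fold (interval 0.541 to 0.623). Pabpn1, the nuclear one, had 98.2 FPKM after anti-CD40 and 104 after IgG.

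The mRNAs of decapping and exonuclease genes showed no common direction, and decay itself was not measured. Among 21 genes of decapping and translational repression the median was 0.14, with 11 above the median of all genes and 1 gene 1.5-fold apart each way. The decapping enzyme Nudt16 had 2.94 FPKM after anti-CD40 and 1.51 after IgG, 1.95-fold higher (interval 1.35 to 2.80). Lsm5, a subunit of the ring that activates decapping, had 3.87 FPKM after anti-CD40 and 6.54 after IgG, 0.592-fold (interval 0.383 to 0.895). Lsm14a and Eif4enif1 had log2 ratios of 0.37 and 0.34, and the decapping scaffold Edc4 one of -0.40. Among 18 genes of the exonucleases and the exosome the median was 0.16, with 9 above the median of all genes, 3 at least 1.5-fold higher and 1 lower. The exosome subunit Exosc3 had 9.57 FPKM after anti-CD40 and 5.35 after IgG, 1.79-fold higher (interval 1.42 to 2.28). Exosc7 had 20.97 FPKM after anti-CD40 and 13.4 after IgG, and Dis3l2, an exonuclease for uridylated RNA, 4.56 after anti-CD40 and 2.43 after IgG. The gene past the mark in the other direction was the exosome subunit Exosc4, at 20.4 FPKM after anti-CD40 and 36.6 after IgG, 0.557-fold (interval 0.508 to 0.611). Exosc5 had a log2 ratio of -0.16. Over all 75 genes of these lists other than the 10 regulators, 41 lay above the median of all genes and the median log2 ratio was 0.14. The number of the 75 past 1.5-fold was 5 toward anti-CD40 and 3 toward IgG, beside 2.68% and 2.15% of all genes.

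**Figure D3:**
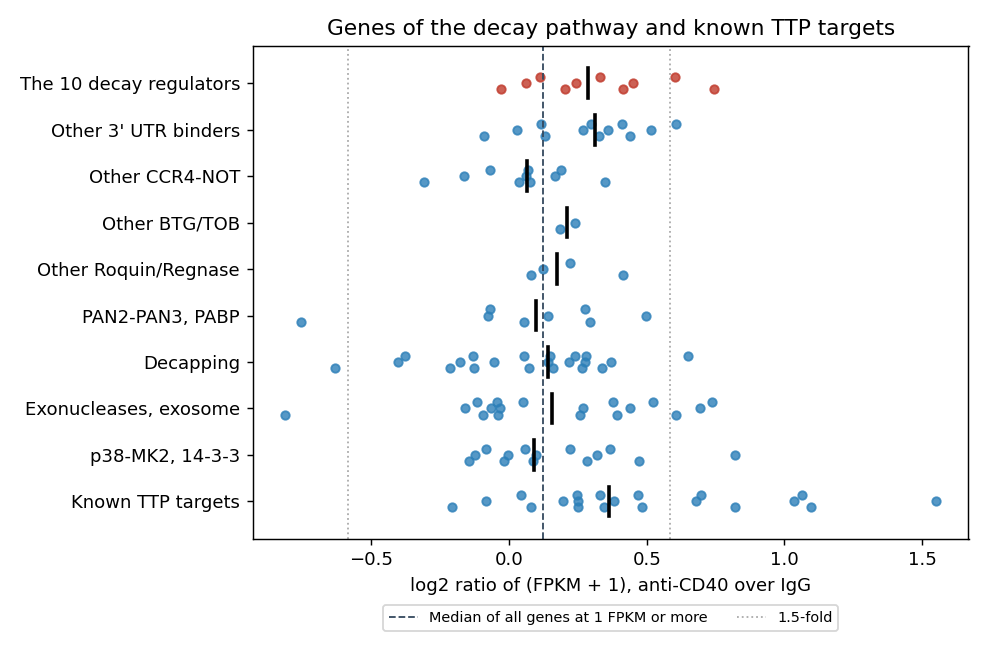
Log2 ratio of (FPKM + 1), anti-CD40 over IgG, for each gene at 1 FPKM or more, by list; black bars are list medians, the dashed line is the median of all genes and the dotted lines mark 1.5-fold. The 10 regulators have a median of 0.29, the other CCR4-NOT subunits 0.07 and the known TTP targets 0.36.

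The p38-MK2 pathway lies upstream of TTP. Of its genes and those of the 14-3-3 proteins, 14 reached 1 FPKM, and 1 of these was at least 1.5-fold higher. Their median log2 ratio was 0.09 beside 0.12 for all genes. That gene was Dusp1, the phosphatase that inactivates p38, at 141 FPKM after anti-CD40 and 79.7 after IgG. Mapkapk2, the kinase that phosphorylates TTP, had 200 FPKM after anti-CD40 and 222 after IgG, and Mapk11, a p38 kinase gene, had 1.17 after anti-CD40 and 1.37 after IgG. 14-3-3 proteins bind phosphorylated TTP, and of their genes Ywhah had 139 FPKM after anti-CD40 and 100 after IgG, and Ywhaz 45.4 after anti-CD40 and 34.97 after IgG. The activity of these proteins was not measured.

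Transcripts known as TTP targets were set beside the regulators, and several of them appear among the sequences printed above. Of 25 listed genes, 20 reached 1 FPKM, with a median log2 ratio of 0.36 and 16 above the median of all genes. Of these 20, 7 were at least 1.5-fold higher and 0 lower, beside 2.68% and 2.15% of all genes. This list too was drawn with earlier results of these data known, and it shares Dusp1 with the p38-MK2 list. Ier3 and Fos, named because they lay near the mark, fell under it with the median shift subtracted, at 0.576 and 0.557. The highest log2 ratios were 1.55 for Il1b, the gene of interleukin-1 beta, 1.10 and 1.06 for the neutrophil chemokine genes Cxcl1 and Cxcl2, and 1.04 for the kinase gene Pim3. Pim3 had 9.49 FPKM after anti-CD40 and 4.12 after IgG, 2.31-fold higher (interval 1.94 to 2.74). The lowest were -0.21 for Nfkbid, a nuclear IkB protein gene, and -0.08 for the survival gene Mcl1. The target list holds many early response genes of macrophages, and whether decay or transcription differed cannot be told apart from mRNA levels. In bulk RNA, fewer cells expressing a gene and less RNA per cell cannot be told apart either.

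The heptamer TATTTAT stood in the 3′ untranslated region of 7 of the 10 regulators, against 25.1% of the 9083 coding genes at 1 FPKM or more with a transcript model. Regions with the heptamer were longer, with a median of 1912 bases beside 656 for those without one. In the first 500 bases, a window of equal size, 1 of the 10 genes held it (Btg2), against 11.6% of the 6078 genes with at least that length. Zfp36 held 3 heptamers in 774 bases, Zfp36l1 3 in 1835, Zfp36l2 3 in 1822 and Elavl1 8 in 4218. Khsrp, Btg1 and Cnot1 held none, Btg2 and Cnot7 held 1 each and Rc3h1 held 2.

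Zfp36 stands in a small class by this measure. Among 3157 genes with regions of 500 to 1500 bases, 36 (1.14%) held 3 or more heptamers, and these had a median log2 ratio of 0.28. Of these 36 genes, 9 (25%) passed 1.5-fold toward anti-CD40 and 0 toward IgG, against 2.63% higher over all 3157. Over regions of all lengths the share was smaller. Of 238 genes with 3 or more heptamers 16 (6.72%) passed 1.5-fold toward anti-CD40 and 2 toward IgG, with a median log2 ratio of 0.17, and of 477 with 2 heptamers 8 (1.68%) passed toward anti-CD40, beside 2.57% of all 9083 coding genes. The 9 past the mark among the 36 were Cxcl1, Cxcl2, Osm, Dusp1, Zfp36, Fam174a, Ier3, N4bp2l1 and Amn1. Of these 9, 4 are on the list of known targets. N4bp2l1 and Amn1 lay just past the mark of 0.585, at 0.605 and 0.589. With the median shift of 0.12 subtracted, N4bp2l1, Amn1 and Ier3 (0.576) fell under the mark. Eno2, with 10 heptamers and picked after its values were seen, had 21.9 FPKM after anti-CD40 and 31.6 after IgG. The classes were formed after the values were seen. Among listed targets the 15 with a heptamer had a median of 0.48 and the 5 without one a median of 0.20. Their ranges overlapped, from -0.08 to 1.55 with a heptamer and from -0.21 to 0.38 without one, and region lengths were not matched.

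**Figure D4:**
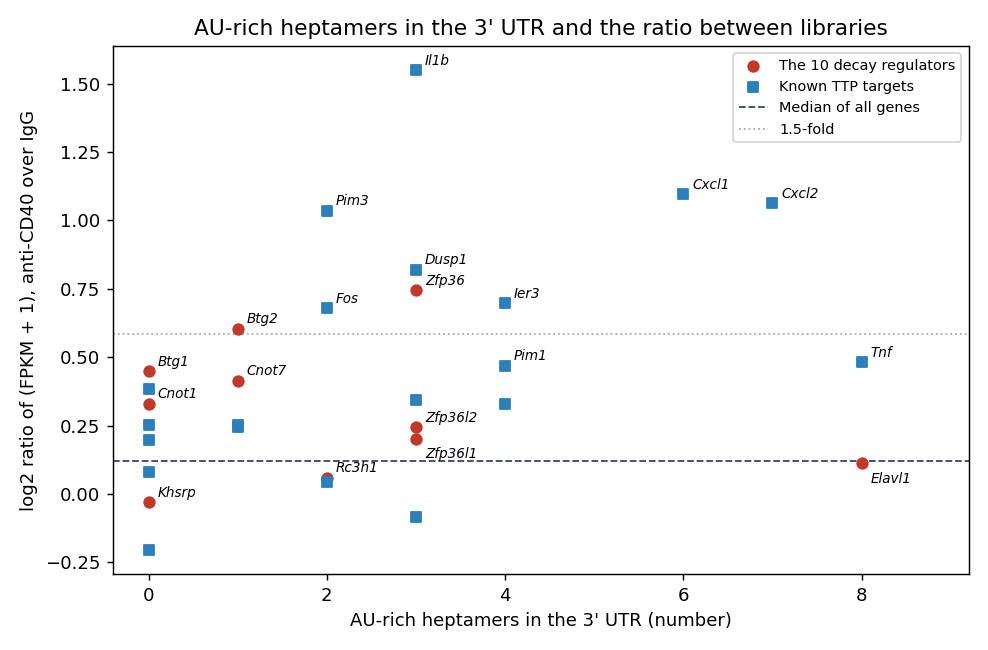
Number of heptamers in the 3′ untranslated region against the log2 ratio of (FPKM + 1), anti-CD40 over IgG, for the 10 regulators (circles) and the known TTP targets (squares) at 1 FPKM or more. Elavl1 has 8 heptamers and a ratio of 0.11, at the dashed median of all genes, and Zfp36 has 3 and a ratio of 0.74.

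Promoter windows were found for 7 of the 10 genes, Zfp36, Zfp36l1, Elavl1, Khsrp, Btg1, Btg2 and Rc3h1. Motifs were searched on both strands of the 250 bases before the start, and the same search over 32841 windows gave the shares that hold each motif. Zfp36 held the EGR motif GCGGGGGCG, which 2.57% of windows hold, beginning 105 bases before the start, and a CArG box, the site of serum response factor, which 1.47% hold, beginning 58 bases before it. Btg2 held the cyclic AMP response element TGACGTCA, which 1.55% hold, beginning 166 bases before the start. The shorter ACGTCA, held by 6.47% of windows and contained in the full element, stood in Btg1 188 bases before the start. The TATA motif TATAAA, held by 12.4%, began 26 bases before the start of Btg1 and 29 bases before that of Zfp36l1. Rc3h1 held the AP-1 motif TGACTCA, which 4.46% hold, 133 bases before its start. The GC box GGGCGG, held by 32.7% of windows, stood in 5 of the 7, and CCAAT, held by 33.9%, in another set of 5. The NF-kB motif, held by 5.93%, had no match in the 7 windows. The motifs were chosen with the sequences in view, and a match is a description of letters.

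Exons of other annotated genes overlap some of the 10 on the opposite strand, and no source used here states the strand setting, so reads of such partners cannot be told apart. Exons of Cnot7 share 247 bases with Zdhhc2, which had 0.038 FPKM after anti-CD40 and 0.025 after IgG. Exons of Elavl1 share 204 bases with Ccl25, a chemokine gene at 1.76 FPKM after anti-CD40 and 0.953 after IgG. On the opposite strand of Zfp36, Zfp36l1 and Zfp36l2, annotated exons share 125, 1672 and 105 bases with Gm44710, Gm26669 and AC132455.1. These partners were not listed by those names among the 34714 genes, so no level can be given. The Btg1 copies Btg1b and Btg1c were listed at 0 throughout, and an exact 0 may reflect a failed estimate.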

How the data were processed

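Each group held 1 RNA-seq library, made per the labels' protocols with a TruSeq kit from 1.3 ug of TRIzol-extracted RNA. The submitters' processing notes name HISAT2 2.1.0, StringTie and mm10; no source used here states the annotation, strand setting or filters. The deposited values were read as FPKM that the authors made with StringTie, since the table names no unit and its columns sum to 529104 for anti-CD40 and 547362 for IgG. Column names gave the groups, and 0 columns went unused.

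The log2 ratio was that of (FPKM + 1), over genes whose higher value reached 1 FPKM, with counts at 1.5-fold and 2-fold. For genes with 1 RefSeq transcript and 1 exon, 72.9% of 70 low values (anti-CD40) and 88.9% of 36 (IgG) were whole multiples of a step, within 0.05 steps. The step was sought only within a preset narrow range, so multiples or fractions of it were not tried. Read as 0.5 aligned bases, the steps gave the depth and, with transcript lengths and 300-base fragments, the fragments behind the intervals. The ratio and call rule were run on simulated counts with known folds and counting error only. That simulation held no replicate error and no shift between libraries, so it cannot show how the rule fares with either. Python 3.11.15 and scipy 1.17.1 were used.

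The regulators and lists were chosen with earlier results of these data known. Named in each list were the 3 highest and 2 lowest ratios (4 and 2 for TTP targets) at 1 FPKM or more; 1 such gene is not reported here. The 3′ untranslated region came from 1 coding transcript per gene. Alternatives were pseudocounts, scalings and filters.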

Additional observations from a re-analysis of the deposited data

How the results depend on the processing

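The median log2 ratio of the 10 regulators was 0.29. It was 0.33 with a pseudocount of 0.1 FPKM and 0.20 with 5 FPKM, 0.17 after centring on the median of all genes, 0.18 after upper-quartile scaling, 0.33 with both libraries scaled to the mean of their sums, and 0.24 with a filter at 5 FPKM, which left 7 of the 10. The number at least 1.5-fold higher was 2, and it was 1 with a pseudocount of 5 FPKM, after centring and after upper-quartile scaling, with Btg2 under the mark in each. Over all genes, 257 were 1.5-fold higher and 206 lower. The counts were 508 and 329 with a pseudocount of 0.1 FPKM, 81 and 102 with 5 FPKM, 118 and 406 after centring, and 141 and 365 after upper-quartile scaling. Of 67 single-gene values under alternatives, 4 changed sign, those of Elavl1, Rc3h1 and Khsrp given with their levels. Another 9, of Zfp36, Zfp36l2, Btg1 and Btg2, moved at least as far as the gene's counting interval reaches to either side. All 9 came from centring or scaling. The log2 ratio of Zfp36 was 0.62 after centring, 0.63 after upper-quartile scaling and 0.79 with both libraries scaled to the mean of their sums. No paired analysis was possible because each group has 1 library, and no replicate could be left out for the same reason. Depth limits Cnot7 and Rc3h1 most, with 130 and 261 fragments after IgG.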
